A study of Mus musculus with 4 samples.

Results

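Methylated Pontin peaks were examined at 65 protein-coding genes of the splicing machinery, chosen by symbol from 21938 protein-coding genes of the nuclear chromosomes. They are all the genes of GENCODE vM21 whose symbol starts with Hnrnp (20 genes), Srsf (11), Snrp (12), Sf3a (3), Sf3b (6) or Prpf (13). A gene was said to have a peak when the centre of a peak lay within 2.5 kb of the transcription start site (TSS) of any of its transcripts. The rule uses gene names alone and no measured value, but it was set with earlier results of these data known. The study immunoprecipitated chromatin of wild-type mouse embryonic fibroblasts (MEFs) with an antibody to arginine-methylated Pontin, a chromatin-remodelling ATPase, and used chromatin without immunoprecipitation (input) as the control. The study made 4 libraries without replicates, namely ChIP and input of MEFs grown in normal media and ChIP and input of glucose-starved MEFs. Values here come from the authors' peak list for the starved ChIP library, so nothing below compares starved with fed cells, and every difference is between genes of 1 library. That library holds 20765512 tags, 0.649% of them in 4311 peaks of 481 bp, and the identity of the cells could not be checked from a list of peaks.

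Splicing removes introns from pre-mRNA in the spliceosome, which is built from small nuclear ribonucleoproteins (snRNPs) and many further proteins. The Snrp genes encode the Sm proteins that ring the spliceosomal RNAs and proteins particular to the U1 and U2 snRNPs. The Sf3a and Sf3b genes encode the subunits of SF3A and SF3B, the parts of the U2 snRNP that engage the branch site. Prpf genes encode pre-mRNA processing factors, among them the proteins of the U4/U6.U5 tri-snRNP. Srsf genes encode the SR proteins, which mostly favour the use of nearby splice sites, and Hnrnp genes encode the heterogeneous nuclear ribonucleoproteins, abundant proteins that coat nascent RNA and often oppose SR proteins. Fibroblasts, like other dividing cells, express most of these genes constantly.

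Sequences near the middle of the peaks give the bases on which the signal lies. For each family the peak with the highest tag count is shown, as the longest stretch outside annotated untranslated regions within the 300 bases around the centre of the peak. Sequences are from GRCm38 (mm10), read 5′ to 3′ on the strand of the gene, with CpG dinucleotides in capitals.
Hnrnpa2b1 chr6:51469516-51469676 (- strand): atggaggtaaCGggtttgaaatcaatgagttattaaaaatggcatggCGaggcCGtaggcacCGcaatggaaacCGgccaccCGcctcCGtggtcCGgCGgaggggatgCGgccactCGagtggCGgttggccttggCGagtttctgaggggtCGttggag
Srsf10 chr4:135855634-135855746 (+ strand): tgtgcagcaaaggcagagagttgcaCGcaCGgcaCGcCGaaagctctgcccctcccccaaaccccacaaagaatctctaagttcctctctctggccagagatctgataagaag
Snrpc chr17:27839584-27839883 (+ strand): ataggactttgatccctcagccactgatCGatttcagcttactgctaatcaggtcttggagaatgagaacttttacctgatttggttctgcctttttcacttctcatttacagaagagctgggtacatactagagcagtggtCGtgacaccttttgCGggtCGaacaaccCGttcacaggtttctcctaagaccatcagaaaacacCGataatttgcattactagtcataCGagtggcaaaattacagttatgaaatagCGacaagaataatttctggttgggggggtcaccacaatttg
Sf3a3 chr4:124714895-124715085 (+ strand): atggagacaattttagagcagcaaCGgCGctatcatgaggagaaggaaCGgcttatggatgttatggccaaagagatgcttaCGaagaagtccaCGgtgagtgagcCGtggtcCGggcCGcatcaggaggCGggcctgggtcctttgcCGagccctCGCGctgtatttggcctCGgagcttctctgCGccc
Sf3b3 chr8:110846400-110846599 (- strand): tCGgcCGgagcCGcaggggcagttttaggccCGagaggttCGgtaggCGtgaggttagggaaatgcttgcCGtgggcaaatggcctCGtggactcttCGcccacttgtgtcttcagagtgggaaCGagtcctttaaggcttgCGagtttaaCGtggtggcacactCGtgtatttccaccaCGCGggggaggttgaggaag
Prpf39 chr12:65035957-65036256 (+ strand): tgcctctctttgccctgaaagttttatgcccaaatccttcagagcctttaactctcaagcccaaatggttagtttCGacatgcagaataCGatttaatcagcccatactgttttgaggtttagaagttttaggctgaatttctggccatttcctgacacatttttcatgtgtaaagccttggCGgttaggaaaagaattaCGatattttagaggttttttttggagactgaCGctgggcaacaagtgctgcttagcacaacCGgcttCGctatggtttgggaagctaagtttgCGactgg
The stretches differed in base composition. Those of Snrpc and Prpf39 had a GC content of 42.7% and 8 CpGs each in 300 bases. That of Sf3b3 had 58.5% and 15 CpGs in 200 bases, that of Hnrnpa2b1 59.6% and 14 CpGs in 161 bases, and that of Sf3a3 58.1% and 14 CpGs in 191 bases. The stretch of Srsf10 had 54.9% and 4 CpGs in 113 bases, and does not reach the centre of its peak. Since untranslated regions were left out, the stretches differ from the whole peaks. Over the whole peak the GC content was 65.1% at Hnrnpa2b1, 64.7% at Srsf10 and 60.1% at Sf3a3. It was 57.2% at Sf3b3, 47.8% at Prpf39 and 42.8% at Snrpc.

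Of the 65 genes, 33 (50.8%, 95% Wilson confidence interval 38.9% to 62.5%) had a methylated Pontin peak and 32 had none, where 17.1% of all protein-coding genes had one. Each of the 33 had 1 peak. The interval covers counting error only, and the genes are not replicates, so no test was made. Peaks are mostly at GC-rich promoters, and GC content was therefore taken into account. Other protein-coding genes within 1 percentage point of each gene in promoter GC content, measured over 1 kb at the 5′ end of the gene, had a peak in 21.4% of cases on average. That share would give 13.9 of the 65 genes. With peaks of at least 8-fold over input alone, 16 of the 65 genes had one (24.6%), and the difference to like genes fell from 29.4 to 12.1 percentage points. The families also have many annotated start sites, a median of 5 per gene against 3 in all protein-coding genes, and each further start site widens the searched region. With a match on both GC content and the number of start sites, the difference to other genes was 26.6 percentage points over the whole list. Among genes with at least 4 start sites, 26 of 49 members (53.1%) and 25.6% of the others had a peak. Among those with 2 or 3, 6 of 12 members (50%) and 12.1% of the others did.

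**Figure D1:**
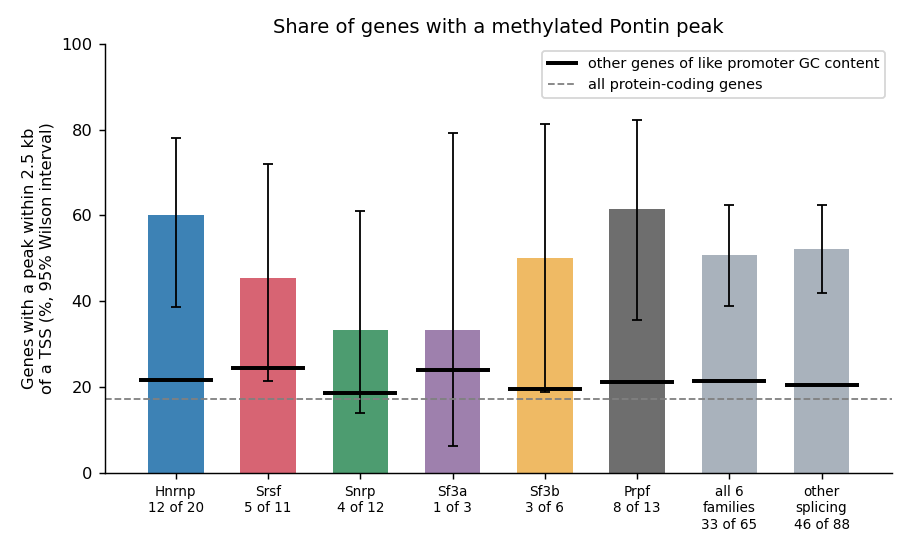
Percentage of genes that had a peak of methylated Pontin near a start site (2.5 kb or less), for each family, for all 65 genes and for 88 other splicing genes. Bars are shares with 95% Wilson intervals, short black lines the mean share of other genes of like promoter GC content (18.5% to 24.4%), and the dashed line all protein-coding genes. Every bar stands above its black line, and the intervals of Srsf, Snrp, Sf3a and Sf3b include it.

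The shares of the Prpf and Hnrnp families were the highest in the whole list, and both depended on peaks of low fold over input. Of the Prpf genes 8 of 13 (61.5%, Wilson interval 35.5% to 82.3%) had a peak, against 21.1% of other genes of like GC content. Of the Hnrnp genes 12 of 20 had one (60%, 38.7% to 78.1%), against 21.7% in like genes. In both, the interval lay above the share of like genes. With peaks of at least 8-fold over input alone, 0 of 13 Prpf genes had one (Wilson interval up to 22.8%, like genes 12.4%) and 5 of 20 Hnrnp genes (25%, 11.2% to 46.9%, like genes 12.9%), so neither interval then lay above the share of like genes. The Sf3b genes had a peak in 3 of 6 cases (50%, 18.8% to 81.2%, like genes 19.5%) and the Srsf genes in 5 of 11 (45.5%, 21.3% to 72.0%, like genes 24.4%). The Snrp genes had one in 4 of 12 (33.3%, 13.8% to 60.9%, like genes 18.5%) and the Sf3a genes in 1 of 3 (33.3%, 6.15% to 79.2%, like genes 24%). At 8-fold, Snrp kept 4 of 12 (like genes 10.8%) and Sf3b 3 of 6 (like genes 11.6%), and both intervals then lay above like genes. The intervals of Srsf (3 of 11, like genes 14.1%) and Sf3a (1 of 3, like genes 14.0%) included the share of like genes. The intervals of all 6 families overlap, and no order of the families is drawn from these counts.

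Promoter GC content did not separate members with a peak from members without. The 33 genes with a peak had a median of 57.9% (range 44.1% to 73.8%) and the 32 without had 58.3% (38.2% to 75.9%). The CpG content, as observed over expected, had medians of 0.861 and 0.791 and also overlapped over most of the range. Among other protein-coding genes the share with a peak was 0.178% at a promoter GC content of 30% to 35%, 17.6% at 50% to 55% and 25.7% at 60% to 65%. Between 55% and 60%, where members were most numerous, 12 of 20 members and 23.5% of the other genes had a peak. Between 35% and 40% neither of the 2 members, Snrpn and Sf3b5, had a peak, against 1.13% of the others, and between 40% and 45% both members, Hnrnpm and Snrpc, had one, against 4.34%. The peaks of Hnrnpm and Snrpc lay at internal TSSs, outside the 1 kb in which GC content was measured. The peaks themselves had a GC content of 59.7% and 42.8%. The 4.34% was therefore not matched to the start sites that carry these peaks.

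**Figure D2:**
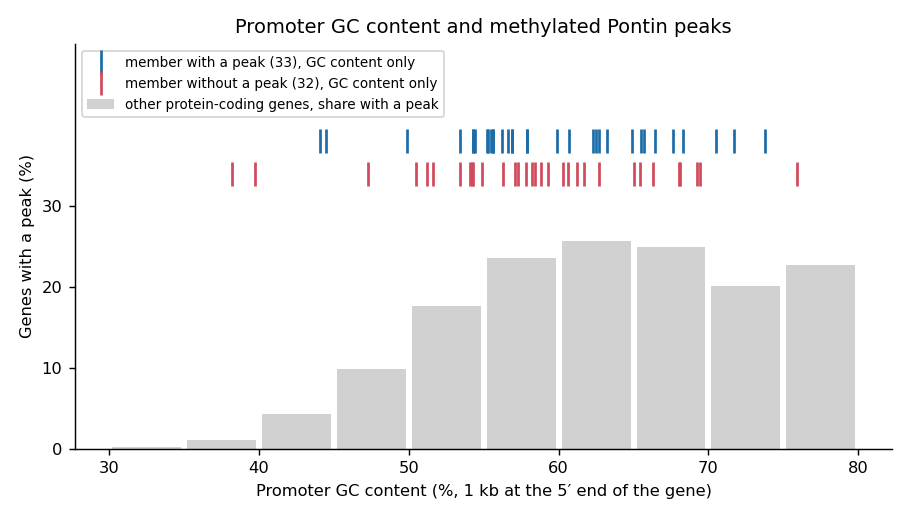
Promoter GC content on the horizontal axis, in percent over 1 kb at the 5′ end of the gene. Grey bars give the share of other protein-coding genes with a peak, from 0.178% to 25.7%, and the vertical ticks give only the GC content of the 33 members with a peak and the 32 without, which spread over the same range.

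Signal is given as tags in the peak, scaled to a library of 10000000. Over the 33 members the median was 15.7 (quartiles 13.2 to 18.3, range 10.1 to 31.5), and over the other protein-coding genes with a peak it was 14.9 (12.5 to 17.8). The members' peaks were thus of about the height of peaks elsewhere. Of the 33, 19 exceeded the median of all peaks in the list, 14.2, and the 5 highest lay at percentiles of 92.5 to 99.7 of the list. Among families with at least 3 peaks the median was 19.3 in Snrp, 18.1 in Sf3b, 18.05 in Hnrnp, 13.25 in Prpf and 13.2 in Srsf. The ranges of these families overlap, with 14.7 to 22.6 in Snrp, 14.0 to 31.5 in Sf3b, 12.0 to 23.4 in Hnrnp, 10.1 to 17.8 in Prpf and 10.6 to 16.9 in Srsf.

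**Figure D3:**
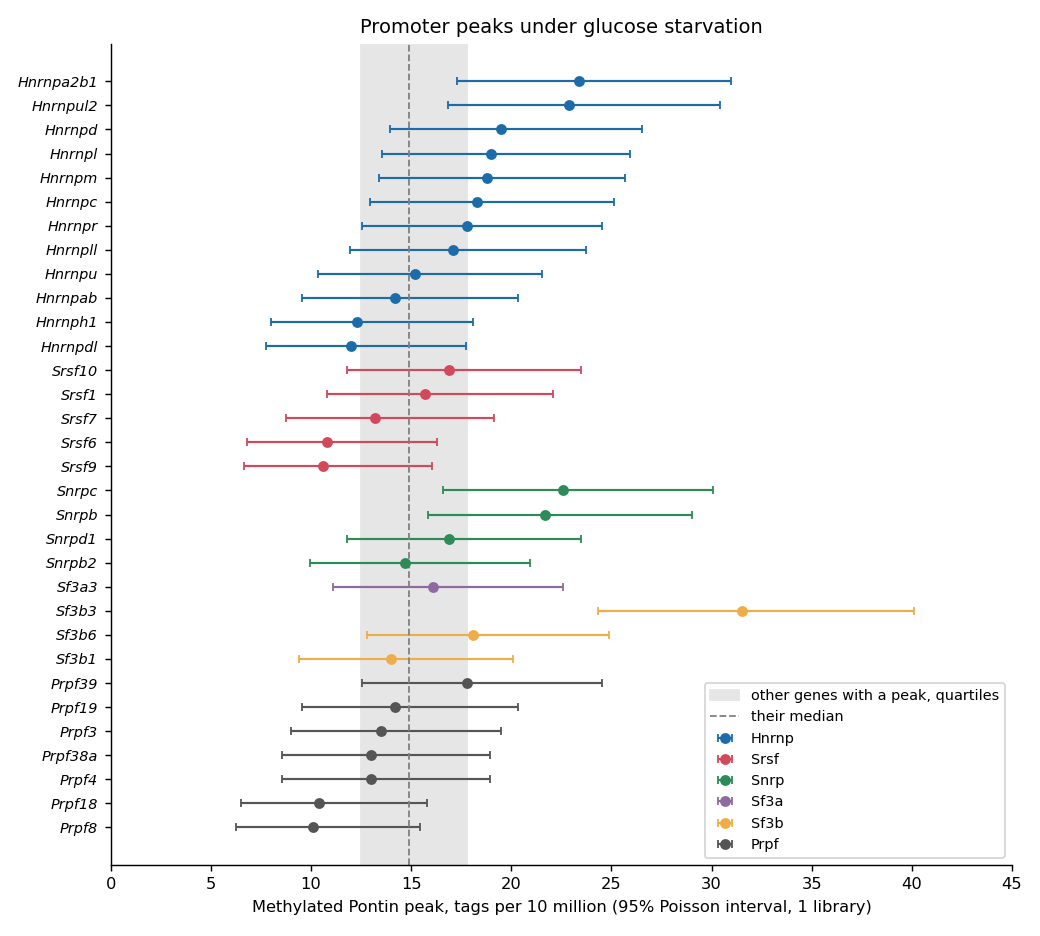
Tag count per 10000000 of the methylated Pontin peaks of the genes named in the text, with a 95% Poisson interval, by family, for 1 library. The dashed line and the grey band give the median (14.9) and quartiles of other protein-coding genes with a peak. Sf3b3 stands farthest right at 31.5, and most other intervals overlap each other.

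The highest signal was at Sf3b3, a large subunit of SF3B. Its peak, on chromosome 8 from 110846310 to 110846790, had 31.5 tags per 10000000, or 65.4 unscaled tags with a 95% Poisson interval of 50.5 to 83.3 that covers counting error alone. Only 11 peaks of the whole list were higher, 5 of them on chromosome 8, where the median peak had 18.5 tags per 10000000, above the 14.2 of the list. The interval of Sf3b3 lay above those of 21 members and overlapped those of the other 11 with a peak. The peak was 10.2-fold over input and its centre lay 177 bp downstream of a TSS of Sf3b3, in an exon of a non-coding transcript. The TSS of Cog4, a Golgi tethering gene on the opposite strand, was closer at 50 bp, so the signal cannot be given to either gene alone. Sf3b6, which encodes the branch-site protein p14, had 18.1 tags per 10000000 on chromosome 12 from 4817001 to 4817481, 303 bp upstream of its TSS and 9.35-fold over input. Sf3b1, the largest subunit and the one that holds the branch-site helix, had 14.0 on chromosome 1 from 55027042 to 55027522, in an intron 91 bp downstream of a TSS and 36.1-fold over input. In Sf3a, only Sf3a3 had a peak, with 16.1 tags per 10000000 on chromosome 4 from 124714696 to 124715176, in a coding exon 53 bp from a TSS and 20.9-fold over input. Sf3a1, Sf3a2, Sf3b2, Sf3b4 and Sf3b5 had none. Sf3b5 was the member just outside the distance limit, with a peak of 19.3 tags per 10000000 at 2.83 kb. The member farthest inside it was Hnrnpul2, at 907 bp.

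Among the hnRNP genes the highest signal was at Hnrnpa2b1, which encodes an RNA-binding protein of splicing and RNA transport. Its peak lay on chromosome 6 from 51469426 to 51469906, with 23.4 tags per 10000000 (48.6 tags in the library, Poisson interval 35.9 to 64.3) and 15.1-fold over input. The centre was 106 bp downstream of a TSS of Hnrnpa2b1 and 694 bp from the TSS of Cbx3, the heterochromatin protein HP1γ gene with which it shares a divergent promoter. That promoter region is known from other work as an element that keeps chromatin open in many tissues. Hnrnpul2 had 22.9 tags per 10000000, on chromosome 19 from 8818863 to 8819343, but its peak lay 907 bp upstream of its TSS and 129 bp from that of Ttc9c, and was 5.92-fold over input. Hnrnpd, which encodes the RNA-decay factor AUF1, had 19.5 on chromosome 5 from 99978445 to 99978925, at 6.31-fold over input. At 8.06-fold over the surrounding 10 kb, its peak was the highest of the family by that ratio. The centre lay in an untranslated exon, 61 bp upstream of a TSS of Hnrnpd. The TSS of the protein-coding gene 4930524J08Rik, on the opposite strand, was 376 bp from the centre. The paralogue Hnrnpdl, whose peak is 59.9 kb away, had 12.0, and the Poisson intervals of the pair overlap (14.0 to 26.5 and 7.76 to 17.7 per 10000000).

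The other hnRNP genes with a peak spanned 12.3 to 19.0 tags per 10000000. Hnrnpl and its paralogue Hnrnpll, which both regulate alternative exons, had 19.0 and 17.1. Hnrnpm had 18.8, Hnrnpc, whose product coats nascent transcripts and binds uridine tracts, had 18.3, and Hnrnpr had 17.8. Hnrnpu, the nuclear scaffold protein SAF-A, had 15.2, Hnrnpab had 14.2 and Hnrnph1 had 12.3. No peak was called at Hnrnpa0, Hnrnpa1, Hnrnpa3, Hnrnpf, Hnrnph2, Hnrnph3, Hnrnpk or Hnrnpul1. Paralogues therefore fell on both sides, as Hnrnpa2b1 had a peak and Hnrnpa1 and Hnrnpa3 had none, and Hnrnph1 had one while Hnrnph2 and Hnrnph3 had none.

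In the SR protein family the strongest peak was at Srsf10, which represses splicing when it loses its phosphate groups. It had 16.9 tags per 10000000 (chromosome 4, 135855544 to 135856024) at 43.6-fold over input, and its centre lay 37 bp from the TSS within an untranslated exon. Srsf1, the prototype of the family, had 15.7 on chromosome 11 from 88047952 to 88048432, at 40.5-fold over input, where the centre lay in an intron 375 bp upstream of a TSS of Srsf1 and 186 bp from the TSS of the antisense gene Gm11508. Srsf7 had 13.2 on chromosome 17 from 80207483 to 80207963, 416 bp upstream of its TSS and 263 bp from that of Ttc39d, at 5.71-fold over input. The Poisson intervals of these 3 overlap (11.8 to 23.5, 10.8 to 22.1 and 8.73 to 19.2 per 10000000). Srsf6 had 10.8 and Srsf9 had 10.6. No peak was called at Srsf2, Srsf3, Srsf4, Srsf5, Srsf11 or Srsf12, so 6 of the 11 genes had no peak. Of the 5 peaks, those of Srsf10 and Srsf1 were above the median of the list and the other 3 below it. For Srsf4 the nearest peak was 328 kb away.

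Of the 8 genes that encode Sm proteins, 2 had a peak (25%, Wilson interval 7.15% to 59.1%), against 20.5% of genes of like GC content. Snrpb had 21.7 tags per 10000000 and Snrpd1 had 16.9, and Snrpd2, Snrpd3, Snrpe, Snrpf, Snrpg and Snrpn had none. Snrpn is the imprinted, brain-enriched relative of Snrpb, and its nearest peak was 3757 kb away. The peak of Snrpb lay within an untranslated exon (chromosome 2, 130179008 to 130179488), 55 bp from a TSS and 9.35-fold over input. That of Snrpd1 lay on chromosome 18 from 10618083 to 10618563 in an intron, 454 bp downstream of a TSS and 10.9-fold over input. Of the 4 genes of proteins particular to the U1 or U2 snRNP, 2 had a peak (50%, 15.0% to 85.0%), against 14.6% of like genes, and the interval overlaps that of the Sm genes. Snrpc, of the U1 snRNP, had the highest signal of the family, 22.6 tags per 10000000 on chromosome 17 from 27839494 to 27839974, and the U1 gene Snrpa had none. Snrpb2, of the U2 snRNP, had 14.7, and its U2 partner Snrpa1 had none. The Snrpc peak was 14.6-fold over input and lay in an intron, 350 bp upstream of an internal TSS, in the AT-rich stretch printed above.

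The 8 Prpf peaks had a median of 13.25 tags per 10000000, below the 14.2 of the list. Prpf39, linked to the U1 snRNP, had the highest, 17.8 tags per 10000000 on chromosome 12 from 65035867 to 65036347, 226 bp upstream of its TSS and 6.59-fold over input, with the highest fold over the surrounding 10 kb of all members (11.5). Prpf19, a ubiquitin ligase that forms the core of a spliceosome-activating complex, had 14.2 on chromosome 19 from 10894350 to 10894830, 641 bp upstream of its TSS and 4.08-fold over input. The Poisson interval of Prpf39, 12.5 to 24.5 per 10000000, overlapped that of Prpf8, 6.25 to 15.4, the highest and the lowest of the family. Of the 5 genes of tri-snRNP proteins, 3 had a peak (60%, Wilson interval 23.1% to 88.2%, like genes 19.6%). Prpf3 had 13.5, Prpf4 had 13 and Prpf8, the protein at the catalytic centre, had 10.1, the lowest of all members. Prpf6 and Prpf31 had none. Prpf38a had 13 and Prpf18 had 10.4, and Prpf38b, Prpf40b and Prpf4b had none.

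The families differed in their fold over input, a ratio that the authors computed for each peak and required to be at least 4. The header of the list does not say which of the 2 input libraries was used. The paper names a control input, without saying whether it came from fed or starved cells. All 8 Prpf peaks were between 4.08-fold and 6.73-fold. All 4 Snrp peaks were between 9.35-fold and 14.6-fold, the 3 Sf3b peaks between 9.35-fold and 36.1-fold, and the Sf3a3 peak at 20.9-fold. The Prpf values did not overlap those of Snrp, Sf3a and Sf3b. The Hnrnp values, 4.30 to 49.2, and the Srsf values, 4.57 to 43.6, spread over nearly the whole range. In all, 16 of the 33 peaks (48.5%, Wilson interval 32.5% to 64.8%) were at least 8-fold over input, against 57.9% in other genes with a peak. The input level implied by a peak is its tag count divided by its fold. Its median per 10000000 was 2.32 in Prpf, 2.47 in Hnrnp, 1.94 in Sf3b, 1.55 in Snrp and 1.16 in Srsf. In other genes with a peak it was 1.55. The low Prpf folds went with lower tag counts and a higher input level than in Snrp or those other genes. A higher input level was not particular to Prpf, since Hnrnp had it too, with folds of up to 49.2. The highest folds, those of Hnrnpl (49.2), Srsf10, Srsf1, Sf3b1 (36.1) and Hnrnpdl (31.2), all went with an implied input level of 0.385 to 0.388 per 10000000, the lowest of the members. That is near the lowest level of other genes with a peak, 0.367. These folds therefore rest on almost no input tags and are imprecise. Implied input levels were low throughout, at most 4.26 per 10000000 in the members, so small differences in input move the folds of every family.

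**Figure D4:**
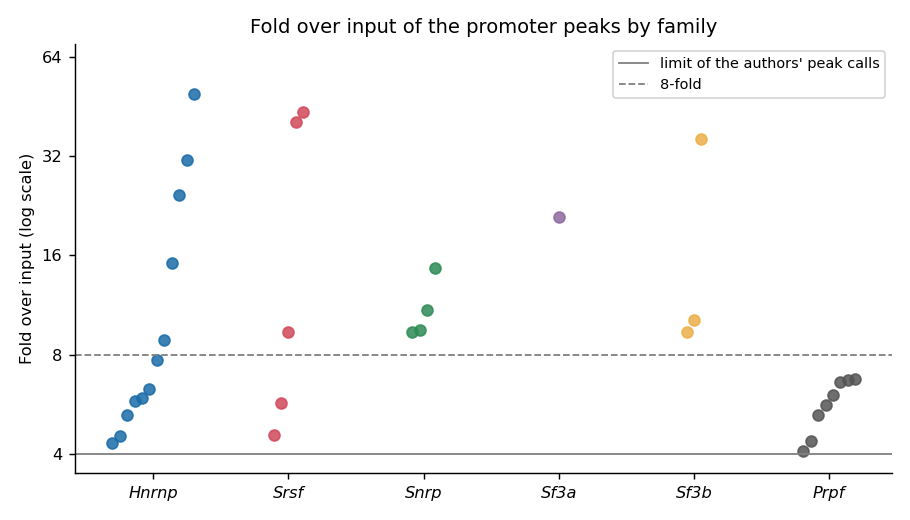
Fold over input of each of the 33 peaks by family, on a log scale, as given by the authors' peak caller. All 8 Prpf points lie below the dashed line at 8-fold, and all points of Snrp, Sf3a and Sf3b lie above it.

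Peaks lay close to start sites. The centre was within 250 bp of a TSS of the gene in 16 of 33 members (48.5%) and within 500 bp in 29 (87.9%), against 46.7% and 78.1% of other protein-coding genes with a peak. The farthest upstream was 907 bp and the farthest downstream 551 bp. The centre lay upstream in 14 of 33 (42.4%, Wilson interval 27.2% to 59.2%) and downstream in 19, while 55.4% of the other genes had an upstream peak, a value inside that interval. By family, 4 of 5 Srsf peaks, 4 of 12 Hnrnp peaks, 3 of 8 Prpf peaks, 2 of 4 Snrp peaks and 1 of 3 Sf3b peaks were upstream. By annotation, 11 centres lay outside the gene, 10 in an intron, 6 in an untranslated exon, 4 in a coding exon and 2 in an exon of a non-coding transcript. In 9 of the 33 the peak was also within 2.5 kb of a TSS of another protein-coding gene (27.3%, against 31.1% in other genes with a peak). In 28 no TSS of another gene of any type was closer than that of the member. The counts by annotation and of the closest TSS are given without the same counts in other genes.

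**Figure D5:**
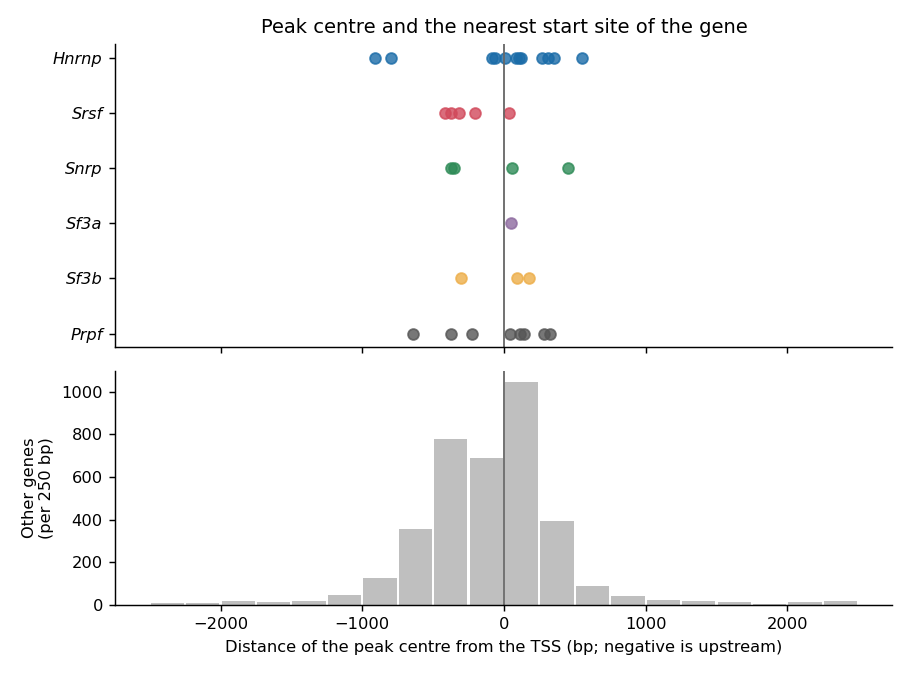
Distance of the peak centre from the nearest TSS of the gene in bp, negative upstream, for the 33 members by family (upper panel) and as counts of other protein-coding genes per 250 bp (lower panel). All members lie between 907 bp upstream and 551 bp downstream, where most other genes also lie.

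The sequences under the peaks were searched for 10 short motifs on both strands, in the 200 bp at the centre. The E2F1 motif GCGGGAA is bound by factors that switch on genes for the cell cycle. It was in 7 of 33 member peaks (21.2%, Wilson interval 10.7% to 37.8%). It was in 4.62% of 3180 other promoter peaks and in 5.41% of those of like GC content, here within 3 percentage points over the 200 bp. Among the 7 member peaks are those of Hnrnpa2b1, Hnrnpul2, Srsf1, Srsf10, Snrpb and Sf3b6, and Snrpb has 2 matches. These matches are shown with 11 bases on each side, read on the strand of the motif, with the motif in capitals.
Hnrnpa2b1 chr6:51469692-51469720 (- strand): ctcgctcggctGCGGGAAatcgggctgaa
Hnrnpul2 chr19:8819029-8819057 (+ strand): agatggagtagGCGGGAAcaagtgaaaca
Srsf1 chr11:88048242-88048270 (+ strand): cagcccccggaGCGGGAAaccgaggcgct
Srsf10 chr4:135855862-135855890 (+ strand): ggctcggccggGCGGGAAagggcgggaaa
Snrpb chr2:130179249-130179277 (- strand): cagagaatccgGCGGGAAtctgagccatc
Snrpb chr2:130179304-130179332 (- strand): tagcggcggcgGCGGGAAtccagcggctg
Sf3b6 chr12:4817257-4817285 (+ strand): ggacaggggccGCGGGAAccgggtgaggg
The stretch of Srsf10 holds a further copy in lower case, which crosses the edge of the 200 bp and was not counted. The matches lay from 15 bp to 92 bp from the centre of the peak. In the whole peak the motif was in 9 members (27.3%), which adds Hnrnpab and Hnrnpd, against 11.1% of the other promoter peaks.

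In promoters taken by gene start, the motif was about as frequent in members without a peak as in members with one. In the RefSeq promoters, 250 bases before to 50 after a gene's start on GRCm38, which matched 57 of the 65 genes by symbol, E2F1 was in 5 of 27 members with a peak (18.5%) and in 5 of 30 without (16.7%), against 7.03% of 16465 other genes. The ETS motif CCGGAAG was in 33.3% of the promoters with a peak, 36.7% of those without and 13.3% of other genes. In that order, the shares were 14.8%, 13.3% and 5.12% for TFEB (TCACGTG), 33.3%, 40% and 19.0% for NF-Y (GCCAAT), 51.9%, 60% and 38.2% for SP (GGGCGGG), and 11.1%, 10% and 3.07% for ZBTB33 (TCGCGAG). They were 7.41%, 13.3% and 5.55% for NRF1 (GCGCATG) and 7.41%, 6.67% and 4.49% for CREB1 (TGACGTC). For FOXO3a (GTAAACA) the shares were nearly equal, at 3.70%, 3.33% and 3.49%, and YY1 (AAGATGG) was in 0 of 27 promoters with a peak, 10% of those without and 7.27% of other genes.

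Under the peaks the remaining motifs were in shares whose intervals include those of the other promoter peaks. ETS was in 2 of the 33 (6.06%, against 5.28%), the SP motif GGGCGGG in 4 (12.1%, against 12.6%), the YY1 motif AAGATGG in 2 (6.06%, against 4.91%) and the NF-Y motif GCCAAT in 1 (3.03%, against 4.40%). The NRF1 motif GCGCATG and the ZBTB33 motif TCGCGAG were in 1 each, against 1.45% and 1.54%. The FOXO3a motif GTAAACA, of a forkhead factor that acts in starved cells, was in 1, the peak of Srsf6 (3.03%, against 1.73%). TFEB and the CREB1 motif TGACGTC were in none of the 33, which allows a share of up to 10.4% by the Wilson interval, against 1.70% and 0.786% in other promoter peaks. A match says only that these letters occur, and at 33 peaks only large differences in share can be seen.

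Splicing genes outside the 6 families had peaks at a like frequency. Of 89 further symbols for splicing factors and RNA-binding proteins, 88 were found in the annotation, and 46 of these (52.3%, Wilson interval 42.0% to 62.4%) had a peak, against 20.5% of genes of like GC content. Their median was 16.5 tags per 10000000. The 5 highest were Pcbp1, a poly(C)-binding protein (31.5 tags per 10000000), Sf1, the branch-point binding protein (30.6), Ddx39b, the helicase UAP56 (27.7), Lsm4, of the Lsm ring on U6 RNA (25.8), and Dhx38, a spliceosomal helicase (23.6). Lsm4 and Dhx38 are on chromosome 8, as is Sf3b3. The peak of Pcbp1 was 81.6-fold over input and lay 1156 bp upstream of its TSS. Implied input levels of these genes went down to 0.386 per 10000000, so a fold this high also rests on almost no input tags. Phf5a, which completes SF3B, had 16.9, and was named after its value was seen.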

How the data were processed

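Chromatin of MEFs was profiled by ChIP-seq. The authors aligned paired-end reads to GRCm38 (mm10) with Bowtie2 and called peaks with HOMER 4.7.2 against input, per the file headers and the paper. The deposited signal is the number of tags in each peak, scaled by the authors to 10000000 per library. The deposited score was used only to take the upper part of the list. The deposited folds over input and over the surrounding 10 kb are ratios computed by the authors, which required at least 4 for both. Their tag threshold was 18 at a false discovery rate of 0.001. It is not on the scale of 10000000, since the listed peak of Prpf8 had 10.1 scaled and 21.0 unscaled tags. Of 13480 putative peaks, 3822 were removed by input and 5347 by local signal, so a gene without a listed peak may still carry weaker or broader signal. The list has 1 column of input tags, which was not used.

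Peak centres were compared with the TSSs of GENCODE vM21 on the same build. Genes with several TSSs had 1 distance, to the nearest. Mitochondrial genes were left out. The values of 1 member are not reported here, though it is part of all counts. Shares have 95% Wilson intervals and tags exact Poisson intervals, which cover counting error only, and the median peak of the list had 29.5 tags. No test was made, since 1 library was available. The members, lists and motifs were chosen with earlier results of these data known. Genes were named by a rule: every member as with or without a peak, full values for the 3 highest of each family and any with at least 2 peaks, and the 5 highest of the other splicing genes. The list of other splicing genes included Ddx39a, which was not found by that symbol. The sequences around E2F1 matches were chosen after the motif counts were seen. Of the 33 member peaks, 26 hold no stretch of 32 bases that recurs in the genome, and the highest repeated share was 11.6%, in Prpf19. The procedures were tested on simulated data. Python 3.11.15, NumPy 2.4.6 and SciPy 1.17.1 were used.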

Additional observations from a re-analysis of the deposited data

How the results depend on the processing

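No paired analysis was possible because only the starved ChIP library has peaks here, with no partner of the same kind. The share of members with a peak, 50.8%, was 24.6% when peaks had to be at least 8-fold over input (16 genes, with 9.93% of all protein-coding genes) and 33.8% when the list was limited to its 2155 top-scoring peaks (22 genes, with 9.57% of all). Both limits leave fewer peaks. The difference to genes of like GC content, 29.4 percentage points, was 12.1 at 8-fold and 21.8 among the high-scoring peaks. With 8-fold, the 8 Prpf genes were all lost, and 9 Hnrnp and Srsf genes with them. The difference was between 26.6 and 31.0 percentage points with limits of 1 kb or 5 kb, with the TSSs of protein-coding transcripts alone, with assignment to the nearest gene only, and the other GC windows and matches, of which the GC content averaged over all TSSs of a gene was added after the data were seen, as was the GC match of the motif shares. Assignment to the nearest gene removed Hnrnpul2, Srsf7 and Sf3b3. A limit of 5 kb added Sf3b5. The share of upstream peaks was 36.4% with protein-coding TSSs. In the whole peak in place of 200 bp, ETS was in 24.2% and SP in 39.4% of member peaks, against 18.7% and 33.4% of the others. At a median of 29.5 tags per peak, most members' Poisson intervals overlap.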

Other observations

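Opposite-strand neighbours were counted for members with and without a peak. A TSS of another protein-coding gene on the opposite strand lay within 1 kb of a TSS of the gene in 14 of 32 members without a peak (43.8%) and in 9 of 33 with one (27.3%). In the other protein-coding genes the shares were 9.34% of those without a peak and 26.6% of those with one. The comparison was added after the data were seen and was not tested.

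For members without a peak, the distance to the nearest peak was taken, without the same measure in other genes. The nearest peak was a median of 38.7 kb from a TSS, within 10 kb for 4 of the 32 genes. Those are Sf3b5 (2.83 kb), Hnrnpk (8.65 kb), Sf3b4 (8.78 kb) and Prpf31 (9.69 kb). The peaks of Hnrnpll and Srsf7 lie on the same chromosome 146 kb apart, each with its own peak.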
